A study of Rattus norvegicus with 232 samples.

Results

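Brains of ACI/SegHsd and COP/CrCrl rats, inbred strains of a shared ancestry, were compared gene by gene in total RNA sequencing data. All animals carrying either strain label were taken, which gave 3 ACI/SegHsd (ACI) and 3 COP/CrCrl (COP) deposited samples of 232 in the series. The RefSeq gene table of version 7.1 (v7.1) gave values for the 3 ACI animals and for COP animals 2 and 3. COP animal 1 was not analysed there, and the comparison rested on 5 of the 197 animals of that table. The Ensembl 96 gene table of version 5 (v5) holds 3 animals of each strain and was used as the check. Every gene of the v7.1 table was a member, 20859 in all.

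All animals of both strains were untreated adult males, and the labels name no transgene, drug or diet. The labels give whole brain, and the paper states that brains were split sagittally and 1 side was used for sequencing. The tissue was stored in a preservative, RNA was extracted on columns, and libraries were made from total RNA after removal of ribosomal RNA. Each animal is 1 biological replicate with 1 library. By the batch characteristic, ACI animals 1, 2 and 3 were of batches 11, 10 and 8, and COP animals 1, 2 and 3 were of batches 9, 10 and 8. The sample titles give batch 8 for all ACI animals and for COP animals 2 and 3. Both strains were therefore present in batches 10 and 8 of the v7.1 table, and the difference within each could be taken.

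The ACI strain was bred from a cross between August and Copenhagen rats, so that COP represents one side of its ancestry. Both strains are classed with the same haplotype of the major histocompatibility complex (MHC) as the DA rat. ACI females are known for mammary tumours under oestrogen, to which COP females are resistant. Inbred strains are nearly homozygous, so animals of one strain serve as repeated samples of one genotype.

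The tissue label was checked first. The pan-neuronal marker Map2 had a mean log2 level of 15.82 in ACI and 15.84 in COP. Summed neuron markers ranged from 17.53 to 17.62 over the ACI animals and from 17.54 to 17.67 over the COP animals. Each animal was nearest its own strain over 324 strain-marking genes, with a correlation across genes of 0.774 to 0.872. The median absolute difference between 2 animals was 0.165 to 0.273 within a strain and 0.130 to 0.254 between the strains, so that 2 animals of different strains were typically no farther apart than 2 of the same strain.

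The tables hold log2 levels and no counts. Library depth is therefore unknown, and counting error cannot be given. A difference is the mean ACI level minus the mean COP level on the log2 scale, with its standard error (SE), and a gene was called where limma's moderated test gave an adjusted p below 5% over all genes of the table. The variance was estimated over all animals and strains of the table, which gives more degrees of freedom than 5 animals alone.

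By the v7.1 values 120 of 20859 genes were called (0.575% of those tested), 67 higher in ACI (0.321%) and 53 lower (0.254%). The median difference over all genes was -0.0012. The interferon-induced gene Ifit1, the complex I subunit gene Ndufs5, the secreted lectin gene Chi3l1 and the aldehyde oxidase gene Aox1 were among those higher in ACI, and the transcription factor gene Zfat and the glycosyltransferase gene Gcnt2 among those lower. Differences were mostly moderate, 45 of the called genes (0.216% of those tested) differing by more than 1 on the log2 scale. The strains did not overlap at any of the 120 called genes. Call and overlap were read from the same values, so this is no added support. Of all genes 13.7% did not overlap.

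The count depended on borrowing the spread of the other strains. With the 5 animals alone 12 genes were called, among them Ifit1, Fkbp6 and the alpha-globin gene Hba-a3. With the replicate number added to that fit as a block 29 were called, and 9 of the 33 named genes were among them, Ifit1, Ndufs5, Rpl30, Tmc5, Hba-a3 and 4 provisional symbols. The others, such as Chi3l1 (adjusted p = 0.0819), Aox1 (0.0682), Gcnt2 (0.119) and Zfat (0.223), were not. When each animal was left out in turn, 35 of the 120 genes were called every time. These 35 included Abcg3l3, Aox1, Chi3l1, Fkbp6, Gcnt2, Hba-a3, Ifit1, Mycbpap, Ndrg3, Ndufs5, Rpl30, Sh2d1b, Trim6, Ugt1a7c and Zfat, and 20 genes with provisional symbols. Leaving out COP animal 2 lowered the count to 55 and leaving out COP animal 3 to 59. Provisional symbols were called more often, 65 of 5088 (1.28%) against 55 of 15771 (0.349%) for the others.

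Ifit1 had the largest difference among the called genes of the interferon list. The Ifit proteins are made after interferon and bind foreign RNA by its 5-prime end. Its log2 level was 7.34, 7.25 and 8.02 in ACI animals 1, 2 and 3, and 4.72 and 4.95 in COP animals 2 and 3. Every ACI animal lay above both COP animals by more than the spread within either strain. The difference was 2.70 ± 0.33 (limma adjusted p = 6.08e-10), a 6.51-fold change, and it was 2.53 within batch 10 and 3.07 within batch 8. With these 5 animals alone the adjusted p was 0.00653. The gene lies on chromosome 1 at 232152038 to 232154103 in the authors' v7.1 annotation, whose genome build is not given in the sources used here. In v5 Ifit1 was 6.71, 7.08 and 7.11 in ACI and 4.90, 4.91 and 4.90 in COP, a difference of 2.06 ± 0.21 (adjusted p = 2.47e-13).

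The Ifit family had 3 other measured genes. Ifit1bl, Ifit2 and Ifit3 differed by -0.09, -0.14 and -0.25, none of them called. Ifit3 was 5.27, 5.92 and 6.13 in ACI and 5.66 and 6.39 in COP, so the strains overlapped. Of 29 interferon-stimulated genes measured, 1 was called higher, 1 lower and 27 not called, with a median difference of 0.033, where 0.575% of all genes were called. In v5 Ifit1 was the 1 called gene of 26 measured, where 1.34% of all genes were called. Counts this small say little about a list.

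The gene called lower was Oas1b, of the oligoadenylate synthetase family whose enzymes sense double-stranded RNA. Its level was 6.81, 6.51 and 6.91 in ACI and 7.29 and 7.79 in COP, a difference of -0.80 ± 0.20 (limma adjusted p = 0.0193). The call was lost without ACI animal 2 (adjusted p = 0.274) or without COP animal 3 (0.434). The 9 other Oas genes ranged from -0.48 to 0.34 and none was called. In v5 the lower gene of the family was Oas1f, at 7.07, 7.23 and 7.23 in ACI and 8.31, 7.92 and 8.04 in COP, a difference of -0.91 ± 0.13 (adjusted p = 1.2e-07). Oas1f was at 2.66 and 2.87 in the v7.1 table, a difference of -0.21 that was not called. The Oas1 genes are close copies between which reads can be split, so which copy differed is uncertain.

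Interferon acts on such genes through the interferon-stimulated response element, searched here on both strands as 2 copies of GAAA with any 2 bases between them, in a window from 250 bases before to 50 bases after the RefSeq start (build GRCr8). It was found in 3.92% of 33469 promoters and in 17 of the 21 promoters of the interferon list (81.0%). Among the called genes with a promoter it was found in 3 of 69 (4.35%, against 4.12% of all genes), 1 of them Oas1b. The promoter table had no entry for Ifit1. The promoters of Oas1b, which was called, and of Ifit3, which was not, are shown because both hold the element, marked in capitals. In Oas1b, at chr12:41395803-41396102 on the minus strand, 2 overlapping matches begin 59 and 53 bases before the start. In Ifit3, at chr1:241527076-241527375 on the plus strand, 1 match on the reverse strand begins 44 bases before it. A match describes the letters only.
Oas1b promoter: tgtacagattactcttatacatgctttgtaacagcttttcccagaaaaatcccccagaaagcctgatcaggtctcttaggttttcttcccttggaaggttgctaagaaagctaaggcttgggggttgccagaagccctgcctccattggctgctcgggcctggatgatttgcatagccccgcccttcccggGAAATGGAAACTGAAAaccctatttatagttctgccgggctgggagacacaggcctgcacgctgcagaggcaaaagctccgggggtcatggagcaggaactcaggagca
Ifit3 promoter: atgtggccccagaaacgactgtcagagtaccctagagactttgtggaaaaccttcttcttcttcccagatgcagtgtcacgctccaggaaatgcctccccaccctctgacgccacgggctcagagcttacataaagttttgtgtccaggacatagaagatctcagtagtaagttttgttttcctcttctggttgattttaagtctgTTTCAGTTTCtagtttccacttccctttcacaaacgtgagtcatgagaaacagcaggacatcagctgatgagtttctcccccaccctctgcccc

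Ndufs5 was also called in both tables. It encodes a small accessory subunit of complex I, which passes electrons from NADH into the respiratory chain. Its level was 10.82, 11.34 and 11.07 in ACI and 9.72 and 9.74 in COP, a difference of 1.34 ± 0.15 (limma adjusted p = 3.66e-11), a 2.54-fold change. It was 1.62 within batch 10 and 1.33 within batch 8. In v5 the difference was 0.62 ± 0.13 (adjusted p = 1.74e-03), with the ACI animals at 11.04, 11.42 and 11.49 and the COP animals at 10.83, 10.48 and 10.79. The strains did not overlap in v5, and no overlap in v7.1 was a condition for naming the gene, but the size in v5 was smaller.

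The other 6 measured Ndufs genes, core and accessory subunits of the same complex, ranged from -0.36 to 0.21 and none was called. Of 86 nuclear genes for oxidative phosphorylation subunits, Ndufs5 was the 1 called (0.575% of all genes were), and the median difference was 0.101 with 13 at an unadjusted p below 5%. The background over all genes at that unadjusted level was 5.78%. The Ndufs5 promoter, at chr5:141264353-141264652 on the minus strand of GRCr8, holds a site for NRF1, a factor that drives many respiratory genes. It was searched on both strands as GCGCA and GCGC with any 1 base between them, begins 129 bases before the start and is marked in capitals. The letters occur in 4.25% of all promoters, in 13 of 75 promoters of the oxidative phosphorylation list (17.3%) and in 7 of 69 called genes (10.1%, against 4.82% of all genes).
Ndufs5 promoter: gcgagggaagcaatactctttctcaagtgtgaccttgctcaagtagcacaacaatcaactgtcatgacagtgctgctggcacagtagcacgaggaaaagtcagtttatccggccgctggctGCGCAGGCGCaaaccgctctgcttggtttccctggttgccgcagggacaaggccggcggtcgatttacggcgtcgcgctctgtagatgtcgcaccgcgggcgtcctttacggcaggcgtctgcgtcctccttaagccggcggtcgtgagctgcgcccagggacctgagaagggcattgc

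Among genes with a full symbol and an ACI mean above the table median, the 12 with the largest increases included 2 ribosomal protein genes. Rpl30, a protein of the large ribosomal subunit, was 10.86, 11.92 and 11.82 in ACI and 9.48 and 9.84 in COP, a difference of 1.87 ± 0.22 (limma adjusted p = 4.69e-10). Rpl7a, of the same subunit, was 12.50, 12.48 and 12.17 in ACI and 11.50 and 11.77 in COP, a difference of 0.75 ± 0.19 (adjusted p = 0.0242). Both differences went the other way in the version 6 Ensembl table, at -0.11 for Rpl30 and -0.04 for Rpl7a, and no symbol of theirs was matched in v5. Rpl7a was not called without ACI animal 1 (adjusted p = 0.134), ACI animal 2 (0.164), COP animal 2 (0.999) or COP animal 3 (0.0702). Ribosomal protein genes have many processed copies in the genome with which reads can be shared, so both values are uncertain; the part of such copies in the disagreement between tables was not tested. Of 88 cytosolic ribosomal protein genes these 2 were called (0.575% of all genes were), and the median difference of the list was 0.052. In v5, 62 genes of the list were measured, none was called higher in ACI, and Rpl12 and Rps12 were called lower (1.34% of all v5 genes were called).

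Chi3l1 and Aox1 were higher in ACI, and both calls held without any 1 animal. Chi3l1, a chitinase-like glycoprotein secreted by astrocytes, was 10.62, 10.74 and 10.40 in ACI and 9.81 and 9.52 in COP, a difference of 0.93 ± 0.14 (limma adjusted p = 2.44e-06). In v5 the difference was 1.34 ± 0.13 (adjusted p = 1.85e-13), where ACI was 10.97, 11.27 and 10.75 and COP 9.55, 9.85 and 9.57. Aox1, an aldehyde oxidase of the cytosol, was 8.52, 8.93 and 8.74 in ACI and 8.01 and 7.72 in COP, a difference of 0.86 ± 0.13 (adjusted p = 4.7e-07), with 0.87 ± 0.14 in v5 (adjusted p = 1.78e-06). No COP animal reached the lowest ACI animal for either gene in v5, and in v7.1 this was a condition for naming them. Chi3l1 lies at 45641449 to 45691159 of chromosome 13 and Aox1 at 59579518 to 59658772 of chromosome 9 in the authors' annotation.

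Ndrg3 and Mycbpap were called without any 1 animal. Ndrg3, of the N-myc downstream regulated family, was 13.23, 13.33 and 13.07 in ACI and 12.38 and 12.39 in COP, a difference of 0.83 ± 0.12 (limma adjusted p = 1.31e-07). No v5 symbol matched it. Mycbpap, a partner of the MYC-binding protein, was 8.80, 8.70 and 8.57 in ACI and 7.97 and 7.93 in COP, a difference of 0.74 ± 0.12 (adjusted p = 1.22e-05) and of 0.97 ± 0.08 in v5 (adjusted p = 1.38e-17).

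Tmc5, Atp7b and P2rx4 encode membrane proteins. Atp7b pumps copper and is the gene of Wilson disease, and P2rx4 is a cation channel opened by ATP. Tmc5 was 9.24, 9.47 and 9.51 in ACI and 8.39 and 8.31 in COP, a difference of 1.06 ± 0.23 (limma adjusted p = 4.41e-03). Atp7b was 8.55, 8.58 and 8.25 in ACI and 8.09 and 7.66 in COP, a difference of 0.58 ± 0.13 (adjusted p = 4.38e-03). P2rx4 was 9.80, 9.50 and 9.46 in ACI and 8.99 and 9.08 in COP, a difference of 0.55 ± 0.12 (adjusted p = 4.6e-03). All 3 were also called in v5, where the differences were 1.07 ± 0.26, 0.74 ± 0.11 and 0.56 ± 0.09. In version 6 Atp7b (0.60) and P2rx4 (0.55) were called, and Tmc5, at 0.51, was not. In the v7.1 table the call depended on single animals. Tmc5 was not called without COP animal 2 (adjusted p = 0.103) or 3 (0.145), and Atp7b not without ACI animal 2 (0.0746) or COP animal 3 (0.424). P2rx4 was not called without ACI animal 1 (0.132), COP animal 2 (0.313) or COP animal 3 (0.0569).

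Klf11 and Ankra2 were called in the v7.1 table without a like value in the others. Klf11, a zinc finger repressor, was 9.25, 9.30 and 9.67 in ACI and 8.53 and 8.56 in COP, a difference of 0.86 ± 0.17 (limma adjusted p = 8.73e-04), but -0.06 in v5 and in version 6. It was not called without COP animal 2 (0.0742). Ankra2, an ankyrin repeat protein, was 8.52, 8.66 and 8.69 in ACI and 7.90 and 8.21 in COP, a difference of 0.57 ± 0.15 (adjusted p = 0.0493), with 0.13 in v5 and -0.53 in version 6. It was not called without ACI animal 2 (0.204), ACI animal 3 (0.205), COP animal 2 (0.999) or COP animal 3 (0.0623), nor with batch as a covariate (0.0513). It was also the 1 of 48 called genes placed both by the authors and by RefSeq GRCr8 that had different chromosomes in them, X and 2.

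Zfat, Nif3l1 and Slc38a9 were lower in ACI in both tables. Zfat is a zinc finger and AT-hook transcription factor needed for lymphoid development. It was 9.31, 9.48 and 9.37 in ACI and 10.07 and 10.00 in COP, a difference of -0.65 ± 0.12 (limma adjusted p = 1.25e-04), and in v5 it was -0.90 ± 0.09 (adjusted p = 9.3e-14). Nif3l1, of the conserved NIF3 family, was 7.86, 7.94 and 8.05 in ACI and 8.42 and 8.37 in COP, a difference of -0.45 ± 0.09 (adjusted p = 8.87e-04) and of -0.52 in v5. Slc38a9, the lysosomal amino acid sensor that acts on mTORC1, was 9.04, 9.21 and 9.29 in ACI and 9.58 and 9.63 in COP, a difference of -0.43 ± 0.10 (adjusted p = 0.01) and of -0.55 ± 0.07 in v5. The strains did not overlap at any of these 3 genes in v5, and no overlap in v7.1 was a condition for naming them. Nif3l1 was not called in v7.1 without COP animal 2 (0.103), and Slc38a9 not without ACI animal 1 (0.156), COP animal 2 (0.139) or COP animal 3 (0.235).

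Gcnt2, which adds branches to poly-N-acetyllactosamine chains, had the larger difference in the v7.1 table only. It was 8.29, 8.60 and 8.57 in ACI and 9.74 and 9.33 in COP, a difference of -1.05 ± 0.13 (limma adjusted p = 5.3e-10), against -0.14 in v5, where it was not called.

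**Figure D1:**
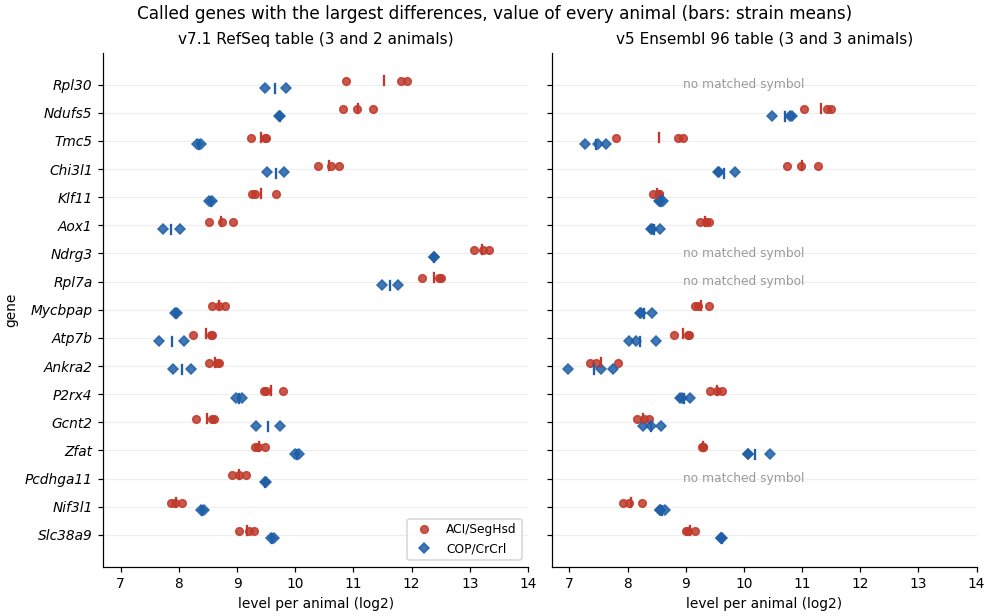
Log2 level of every animal (x axis) for the 17 called genes with the largest differences each way (y axis) among those with a full symbol and the higher strain above the table median, ACI/SegHsd as red circles, COP/CrCrl as blue diamonds and strain means as bars, in the v7.1 table (left) and the v5 table (right). The rule that chose these genes required no overlap in the v7.1 table. In v5 Ankra2 and Gcnt2 overlap, Klf11 is apart in the other direction with a difference of -0.06, and 4 genes have no matched v5 symbol.

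By the same rule 4 genes with provisional symbols were named. LOC100360413 was 11.16, 12.17 and 12.01 in ACI and 9.92 and 9.76 in COP, a difference of 1.94 ± 0.30 (limma adjusted p = 1.97e-06), with 0.31 in v5, not called. LOC102551714 differed by 1.23 ± 0.31 (adjusted p = 0.0251) and was called without ACI animal 1 but not without any of the other 4 animals, with an adjusted p of up to 0.481. LOC100362027 was 3.21, 3.81 and 3.54 in ACI and 9.65 and 7.82 in COP. LOC120097345 was 7.15, 7.49 and 7.48 in ACI and 11.23 and 10.71 in COP. These last 2 were far lower in ACI, by -5.22 ± 0.59 (adjusted p = 6.02e-11) and -3.60 ± 0.44 (adjusted p = 5.3e-10), no overlap being part of the rule. In v5 LOC100362027 differed by 0.14, in the other direction.

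Other gene families were read member by member, since a call in 1 copy can stand beside copies that do not differ. Hba-a3, an alpha-globin gene, was 8.07, 8.12 and 7.63 in ACI and 5.74 and 5.76 in COP, a difference of 2.19 ± 0.31 (limma adjusted p = 1.66e-07). The 6 other haemoglobin genes ranged from 0.15 to 0.85 and none was called, with Hbb-b1 at 0.85 and Hbb-bs at 0.78. In v5 Hba-a3 was at 13.18 in ACI and 12.87 in COP, a difference of 0.31 that was not called, so the gene took a very different level in that table. Alpha-globin copies are nearly identical and the assignment of reads among them is uncertain. Of the blood markers 10 were measured and Hba-a3 was the 1 called (0.575% of all genes were), the median difference was 0.33, and their summed level was 15.00 to 15.34 in ACI and 14.82 to 14.96 in COP. The part of blood content in the Hba-a3 difference was not tested, and in whole tissue fewer cells of a type and less RNA per cell cannot be told apart.

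**Figure D2:**
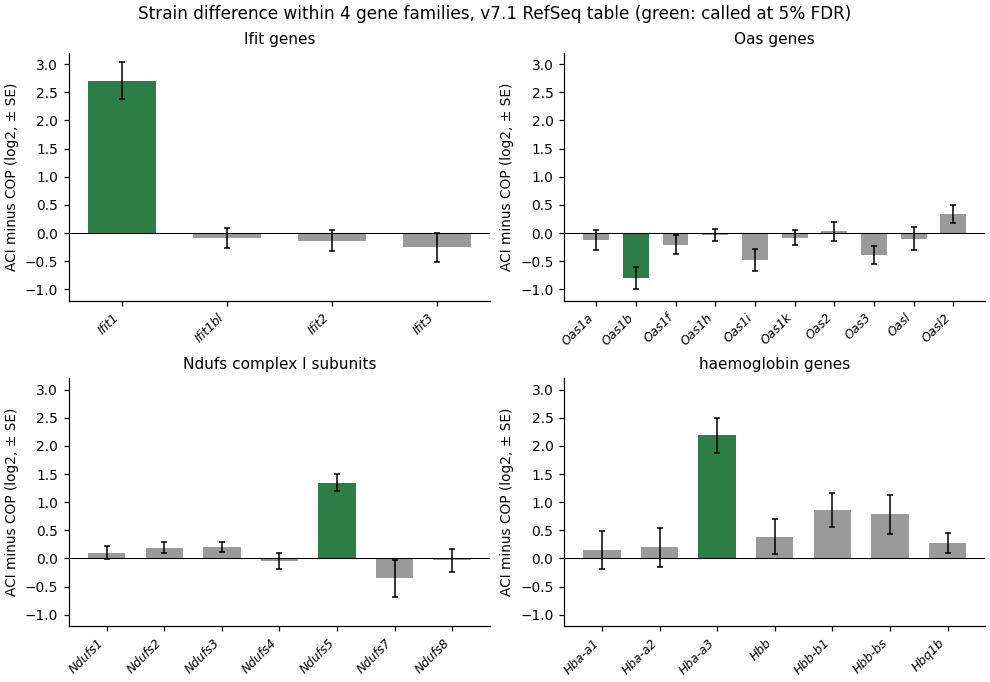
Difference between the strains (y axis, ACI minus COP, log2, bars with SE) for each measured member of the Ifit, Oas, Ndufs and haemoglobin families in the v7.1 table, called genes in green. The families are shown because each holds a called gene, where 0.575% of all genes were called. These are Ifit1 at 2.70, Oas1b at -0.80, Ndufs5 at 1.34 and Hba-a3 at 2.19, beside members within -0.48 to 0.85.

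The Ugt1 genes share their last exons and differ in the first. Ugt1a7c, which glucuronidates phenols and drugs, was 8.23, 8.30 and 8.26 in ACI and 7.42 and 7.44 in COP, a difference of 0.84 ± 0.14 (limma adjusted p = 1.1e-05). The other 4 Ugt1 genes ranged from -0.26 to 0.47. In v5 the called member was Ugt1a8, at 0.73 ± 0.12 (adjusted p = 1.2e-05), which differed by -0.05 in v7.1. The symbol that carried the call thus differed between the tables.

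The gamma protocadherins, adhesion molecules that give neurons an identity and also share exons, held 2 calls of opposite sign among 15, beside 0.575% of all genes called. Pcdhga1 was 7.14, 8.08 and 6.98 in ACI and 6.34 and 5.82 in COP, a difference of 1.32 ± 0.30 (limma adjusted p = 7.25e-03). Pcdhga11 was 9.15, 8.91 and 9.03 in ACI and 9.48 and 9.49 in COP, a difference of -0.46 ± 0.11 (adjusted p = 0.02). The other 13 ranged from -0.48 to 0.23. Pcdhga1 was not called without ACI animal 2 (0.368) or COP animal 3 (0.369), and Pcdhga11 was called only without ACI animal 1, its adjusted p otherwise being 0.0678 to 0.324.

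Across 22 gene lists of brain and metabolic function, 1137 distinct genes were measured and 7 were called (0.616%, close to the 0.575% of all genes). They were Ifit1, Oas1b, Ndufs5, Rpl30, Rpl7a, Pcdhga1 and Pcdhga11. The remaining 18 lists, of 886 genes, held no call and 42 genes at an unadjusted p below 5%. In v5, where 1.34% of all genes were called, Ifit1 and Ndufs5 were called as well. Other members of the 22 lists called there were Npas4, higher in ACI, and Kcns2, Cyp4f6, Pcdhb10, Rpl12 and Rps12, lower. The 7 calls became 3 without ACI animal 2 or without COP animal 3, and 1 with the 5 animals alone. List medians lay between -0.099 and 0.101.

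The lists of neurotransmission held no called gene in v7.1, where 0.575% of all genes were called, so lists of this size would hold few calls at that share. The 15 GABA-A receptor subunits had a median difference of -0.03, the 25 glutamate receptors -0.08, the 88 potassium channels -0.10 and the 52 synaptic vesicle genes -0.03. Snap25, a core protein of vesicle release, was 15.19 in ACI and 15.29 in COP. Summed glutamate receptors were lower in ACI without overlap, at 16.760 to 16.837 against 16.886 to 16.888 in COP. So were the summed potassium channels, at 17.190 to 17.259 against 17.311 to 17.384. The summed GABA-A receptor subunits and synaptic vesicle genes overlapped. Separation of sums was not particular to neurotransmission. The sums of the sodium and calcium channel, hormone signalling and protocadherin lists were also lower in ACI without overlap. Those of the oxidative phosphorylation, cytosolic ribosomal protein, alcohol and aldehyde, and cholesterol lists were higher without overlap. Of all single genes 13.7% did not overlap, and no sum was tested. In v5 the potassium channel modifier Kcns2 was called lower in ACI, 1 of 81 potassium channels measured there, where 1.34% of all genes were called.

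None of the 43 MHC and antigen presentation genes was called, with a median of 0.03, and at the share of all genes (0.575%) a list of this size would seldom hold one. B2m, the light chain of class I molecules, was 12.91 in ACI and 12.92 in COP. The 23 genes of oestrogen, progesterone, prolactin and growth hormone signalling held no call, with a median of -0.05 and 5 genes at an unadjusted p below 5%, a level reached by 5.78% of all genes. The receptor coactivators Ncoa1 and Ncoa2 had the highest means of the list, Ncoa1 at 12.61 in ACI and 12.66 in COP and Ncoa2 at 11.80 and 12.04, neither called.

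Of 186 cell type markers in 22 lists 1 was called, Hba-a3, and 7 had an unadjusted p below 5%, counts near those of all genes (0.575% called and 5.78% at that unadjusted level). The v7.1 medians farthest from 0 besides blood were those of the olfactory bulb, -0.30 over 11 genes, and of the ependyma, 0.28 over 6. Summed olfactory bulb markers were 12.55 to 13.13 in ACI and 13.04 to 13.07 in COP, so the ACI range spanned the COP values. Summed ependyma markers were 10.54 to 10.71 in ACI and 10.43 to 10.47 in COP and did not overlap. Of the 6 markers 2 had an unadjusted p below 5% and none was called. Such separation was not particular to ependyma. Summed microglia markers, 13.563 to 13.665 in ACI and 13.396 to 13.553 in COP, and the blood markers above did not overlap either. Of all single genes 13.7% did not overlap. In v5 the liver markers had a median of 0.55 over 13 genes, none called, against -0.001 in v7.1.

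By RefSeq gene type, the highest share of calls fell on immunoglobulin and T cell receptor variable segments, a class looked at after its values were seen and given without a test. Of 15 measured, 4 were called (26.7%), all higher in ACI, against 62 of 15810 protein-coding genes (0.392%) and 18 of 2502 long non-coding RNAs (0.719%). All 4 lie on chromosome 15 of GRCr8, where 13 of the 15 lie between 28146240 and 31635623 and where the rat T cell receptor alpha and delta locus is found. LOC120097130 was 4.79, 4.93 and 4.94 in ACI and 3.85 and 3.56 in COP, a difference of 1.18 ± 0.19 (limma adjusted p = 7.58e-06), and was called without each animal in turn. LOC682708 was 5.61, 5.56 and 5.87 in ACI and 4.63 and 4.21 in COP, a difference of 1.26 ± 0.32 (adjusted p = 0.0291). LOC120093154 and LOC120097131 differed by 1.04 ± 0.27 and 0.75 ± 0.19. All 4 were low in both strains, and none of these last 3 was called without ACI animal 2, ACI animal 3, COP animal 2 or COP animal 3 (adjusted p = 0.0721 to 0.393). LOC120093154 and LOC682708 were not called without ACI animal 1 either (0.162 and 0.06).

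The 11 segments that were not called ranged from -0.18 to 0.58. The differences of 8 T cell genes, too few for a call to be likely at the 0.575% of all genes, ranged from -0.30 for the costimulatory receptor Cd28 to 0.29 for the adhesion receptor Cd2. Cd3e, a chain of the receptor complex, was 3.74, 3.66 and 3.64 in ACI and 3.55 and 3.54 in COP. Cd7, a T cell gene outside these 8, was called higher in ACI in both tables. It was 4.28, 4.09 and 4.01 in ACI and 3.07 and 3.57 in COP, a difference of 0.81 ± 0.20 (limma adjusted p = 0.0248). In v5 the difference was 0.43 ± 0.10 (adjusted p = 5.19e-03). The v7.1 call was lost without ACI animal 1 (limma adjusted p = 0.156) or ACI animal 2 (0.078). It was also lost without COP animal 2, which left 1 COP animal, and with batch as a covariate (0.0868).

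The v5 table gave a second reading of the same libraries, with COP animal 1 added and another annotation. It held 246 calls of 18309 genes (1.34%), 130 higher in ACI (0.71%) and 116 lower (0.634%). The strains did not overlap at 9.13% of all v5 genes. Of the 120 genes called in v7.1, 54 had a matched symbol in v5, 52 of these had the same sign, and 41 were called in the same direction (75.9%), 29 higher and 12 lower in ACI. None was called in the opposite direction. Of the 246 genes called in v5, 152 were matched, 144 had the same sign, and the 41 were 27.0% of them. Because the tables share animals, this measures agreement between annotations and pipelines rather than a second set of rats.

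Several genes of lower level were among the 41. Trim6, a ubiquitin ligase of antiviral signalling, was 5.02, 4.92 and 4.65 in ACI and 3.15 and 3.59 in COP, a difference of 1.49 ± 0.23 (limma adjusted p = 1.55e-06) and of 0.71 in v5 (2.01e-09). Fkbp6, an immunophilin best known from germ cells, was 5.29, 5.20 and 5.28 in ACI and 7.01 and 6.77 in COP, a difference of -1.63 ± 0.25 (adjusted p = 1.55e-06), but of only -0.25 in v5 (9.67e-03). Both strains were apart in each, though the size in v5 was smaller. Sh2d1b, an adaptor of lymphocyte receptors, was higher by 0.94 in v7.1 and 0.58 in v5, and Polq, a DNA polymerase of end joining, was lower in both, by -0.75 in v5. Polq was not called in v7.1 without COP animal 3 (adjusted p = 0.0548).

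Genes with small and nearly equal differences in both tables included Pamr1 (0.40 and 0.41), Ptgs1, the constitutive cyclooxygenase (0.42 in both), Tk2, the mitochondrial thymidine kinase (0.36 and 0.37), and Fig4, a lipid phosphatase (0.29 and 0.32). In v7.1 each of these 4 lost its call without ACI animal 2, COP animal 2 or COP animal 3, with an adjusted p of 0.112 to 0.751, and Ptgs1 and Fig4 also without ACI animal 1 (0.0667 and 0.0506).

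**Figure D3:**
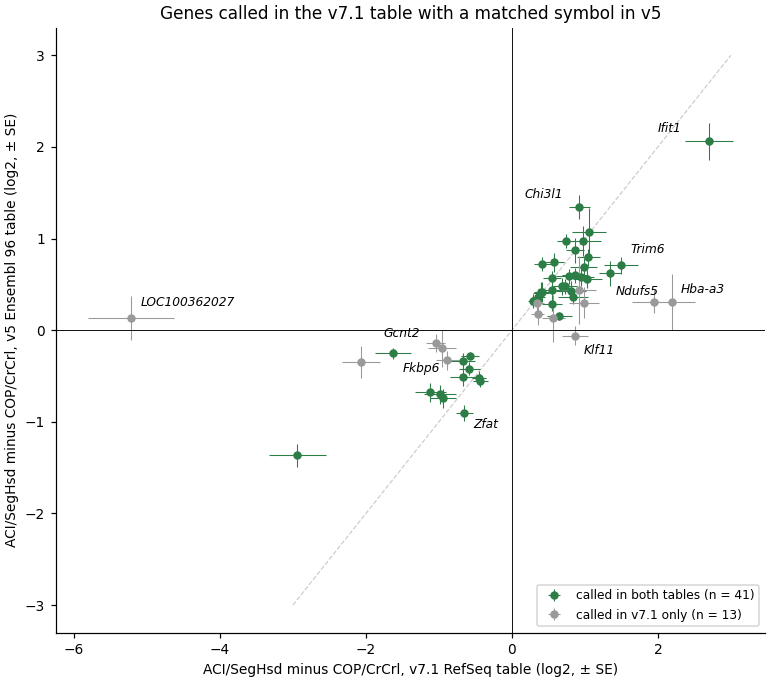
Difference between the strains in the v7.1 table (x axis) and the v5 table (y axis), both ACI minus COP in log2 with SE, for the 54 called v7.1 genes with a matched v5 symbol. The 41 genes called in both tables (green) all lie in the quadrants of equal sign, while LOC100362027 and Klf11 among the other 13 (grey) do not.

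Some of the largest differences in v5 were not seen in v7.1 or had no match there. Among named v5 genes chosen after their values were seen, Wbp1, a WW domain binding protein, was 7.21, 7.25 and 6.75 in ACI and 9.32, 9.36 and 9.17 in COP, a difference of -2.22 ± 0.09 (limma adjusted p = 2.71e-36), against -0.20 in v7.1. Gsdma, a pore-forming gasdermin, differed by -2.47 in v5 and -0.09 in v7.1. Vkorc1, the warfarin target that recycles vitamin K, was 10.19, 10.10 and 10.36 in ACI and 11.48, 11.77 and 11.07 in COP in v5, against a difference of 0.06 in v7.1. The symbols U1 and U3, small nuclear and nucleolar RNAs, were lower in ACI by -4.30 and -4.77, and the ribosomal pseudogene Rps7-ps23 was higher by 3.61. Wbp1, Gsdma and Vkorc1 were therefore called in v5 and not in v7.1, for a cause that was not tested, while U1, U3 and Rps7-ps23 had no matched v7.1 value to compare.

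Places in the authors' annotation were known for 57 of the 120 called genes, and the 4 called variable segments were not among them. Of 14923 genes with a place in the authors' annotation 57 were called (0.382%), and 42 of 233 windows of 10 Mb with at least 20 genes held a call, 9 of them 2 or more. The window with the highest share was chromosome 17 from 20 to 30 Mb, with 4 of 48 genes (8.33%), where Gcnt2, C17h6orf52, Sycp2l and RGD1563601 lie. C17h6orf52 differed by -0.59 ± 0.14 (limma adjusted p = 0.0193), Sycp2l, a paralogue of a synaptonemal complex gene, by 0.84 ± 0.21 (adjusted p = 0.0193), and RGD1563601 by -0.96 ± 0.19 (adjusted p = 8.11e-04). The first 2 were called with the same signs in v5, at -0.42 and 0.36, while RGD1563601 differed by -0.20 in v5, not called, and by 0.01 in version 6. RGD1563601 was not called without COP animal 2 (0.412). Neither of the others was called without ACI animal 3 (0.318 for C17h6orf52 and 0.162 for Sycp2l), COP animal 2 (0.628 and 0.318) or COP animal 3 (0.117 and 0.235), and Sycp2l not without ACI animal 2 (0.159).

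There were 6 pairs of called genes that followed each other along a chromosome and began within 1 Mb, and in 3 of these the members differed in opposite directions. Gcnt2 and C17h6orf52, 43.3 kb apart, were both lower in ACI, while Sycp2l, 166 kb from C17h6orf52, was higher. Ndufs5 and Rhbdl2, a rhomboid protease gene, lie 63.5 kb apart on chromosome 5, the first higher by 1.34 and the second lower by -0.98 ± 0.22 (limma adjusted p = 5.78e-03). Rhbdl2 was also lower in v5, by -0.70, and was not called in v7.1 without ACI animal 2 (0.079) or COP animal 3 (0.42). Of 24 genes tested within 1 Mb of this pair only these 2 were called, where 0.382% of all genes with a place were. The 2 calls were fixed by the choice of the pair. The others lay between -0.30 and 0.17.

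The third such pair of opposite sign was Aox1 and Nif3l1, 401 kb apart on chromosome 9, both called in the same directions in v5. Of 28 genes tested around them only these 2, fixed by the choice of the pair, were called, where 0.382% of all genes with a place were. The others lay between -0.23 and 0.41. Blvra, biliverdin reductase, and Ncaph, a condensin subunit, 31.1 kb apart on chromosome 3, were both higher, by 0.40 and 0.78. Calr3, a calreticulin of the testis, and Niban3, 904 kb apart on chromosome 16, were higher by 0.68 and 0.98. All 4 were called higher in v5, by 0.40 for Blvra, 0.59 for Ncaph, 0.48 for Calr3 and 0.68 for Niban3. With batch as a covariate Blvra was not called in v7.1 (limma adjusted p = 0.0594). In v7.1 none of the 4 was called without COP animal 2 (adjusted p = 0.129 to 0.906), Ncaph not without ACI animal 3 (0.067) or COP animal 3 (0.0548), and Blvra not without any single animal.

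In the transcript table of version 7.1, 91 of 45991 transcripts were called (0.198%), 55 higher in ACI (0.12%) and 36 lower (0.0783%). Leaving out COP animal 2 gave 49 calls, and leaving out COP animal 3 gave 284, of which 263 were higher in ACI. Symbols were matched for 32722 transcripts and for 57 of those called. Of 48 called transcripts whose gene was in the gene table, 29 belonged to a called gene, all with its sign, and 19 to a gene that was not called. No gene had transcripts called in opposite directions. Over all animals 6.1% of transcripts had an unadjusted p below 5%. With the 5 animals alone no transcript was called by limma, with 1980 at an unadjusted p below 5%, so single transcripts rest on the spread of the other strains.

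Called genes differed in how many of their transcripts were called. A non-coding transcript of Gcnt2 was 7.01, 7.07 and 7.24 in ACI and 9.76 and 8.99 in COP, a difference of -2.27 ± 0.31 (limma adjusted p = 7.17e-08), while the other 2 transcripts differed by 0.07 and 0.17 and were not called. A transcript of Chi3l1 was 8.64, 9.03 and 8.91 in ACI and 4.32 and 3.26 in COP, a difference of 5.07 ± 0.80 (adjusted p = 9.03e-06), while the other differed by 1.02 and was not called. Of the 3 transcripts of Ndufs5, 2 were called higher in ACI, by 1.68 and 2.40, and the other differed by 1.26 and was not called.

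Among the 19 called transcripts whose gene was not called were those of Degs1, Ptprn, Dnm3 and Ei24. The transcript of Degs1, the desaturase of the last step of ceramide synthesis, was 10.53, 10.29 and 10.08 in ACI and 3.89 and 3.35 in COP, a difference of 6.68 ± 0.58 (limma adjusted p = 4.38e-17), yet the gene differed by 0.07. No other transcript was matched to the symbol Degs1, but only 32722 of 45991 transcripts had a matched symbol. The gene was at 11.53 in ACI and 11.45 in COP. A transcript of Ptprn, a protein of dense-core vesicles, was 10.75, 11.03 and 10.96 in ACI and 3.25 and 6.55 in COP, a difference of 6.01 ± 1.19 (adjusted p = 1.64e-03), while the gene differed by -0.18 and a second transcript by -2.56, not called. A transcript of Dnm3, a neuronal dynamin, differed by 4.02 ± 0.94 (adjusted p = 0.0237) with the gene at -0.01, and 1 of Ei24 by -2.07 ± 0.46 (adjusted p = 0.0131) with the gene at 0.01. None of these 4 genes was called as a whole.

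The levels of the 23 other classic inbred strains of the v7.1 table show which of ACI and COP stood apart from the panel, as a description with no test. A strain was put on the ACI side where its mean lay nearer to ACI than to COP. At the median called gene 14 strains (60.9%) were on the ACI side. DA/OlaHsd was there for 98 of the 120 genes (81.7%, against 61.4% of all genes), and the 22 others for 44.2 to 64.2%, against 50.7 to 64.1% of all genes. The median of 60.9% lay within the range of all genes. In v5 DA was on the ACI side for 190 of 246 called genes (77.2%, against 51.8% of all genes). Other strains also exceeded their share of all genes there, SS/JrHsd with 70.3% against 58.5% and F344/NHsd with 63.4% against 48.1%. In v7.1 SR/JrHsd did so with 63.3% against 50.7%. In both tables some strains lay below their share, such as BDIX/NemOdaMcwi in v7.1 with 44.2% against 57.3%.

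**Figure D4:**
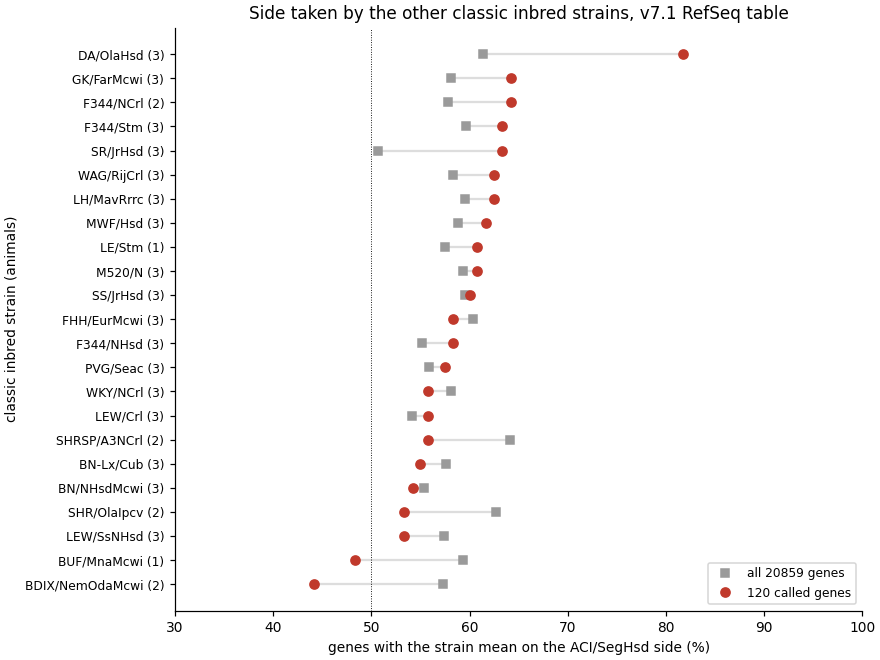
Share of genes at which each of the 23 other classic inbred strains (y axis, number of animals in parentheses) had a mean nearer to ACI/SegHsd than to COP/CrCrl (x axis, percent), for the 120 called genes as red circles and all 20859 genes as grey squares. DA/OlaHsd lies at 81.7% of called genes, and every other strain between 44.2 and 64.2%.

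At some genes COP stood apart from the panel. COP had the lowest mean level of Ndufs5 of the classic inbred strains, 9.73, with M520/N next at 9.97, and 20 of 23 strains were nearer to ACI. Its means of Zfat (10.04), Nif3l1 (8.40) and Gcnt2 (9.53) were above those of every other classic inbred strain. Chi3l1 and Aox1 were nearer to ACI in 20 and 21 of 23 strains. All 23 strains were nearer to ACI for Ttc39b, LOC100363537 and LOC120101596, and at least 20 strains for 29 of the called genes. These counts were not set against all genes, where the strains lay on the ACI side at 50.7 to 64.1%.

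At other genes ACI stood with few strains or alone. Its mean of Calr3, 7.46, was above those of all 23 strains. For Ifit1 5 strains were on the ACI side, GK/FarMcwi at 7.78, SHR/OlaIpcv at 7.44, LE/Stm at 7.09, DA/OlaHsd at 7.08 and FHH/EurMcwi at 6.55, whereas the median of the 23 was 4.76, close to COP at 4.84. LE/Stm had 1 animal and SHR/OlaIpcv 2. For Mycbpap and Trim6 4 strains each were on the ACI side, and for Ugt1a7c 2. Of the 120 genes 5 had 3 or fewer strains on the ACI side, and 2 of these, LOC100911847 and LOC102547718, had none.

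**Figure D5:**
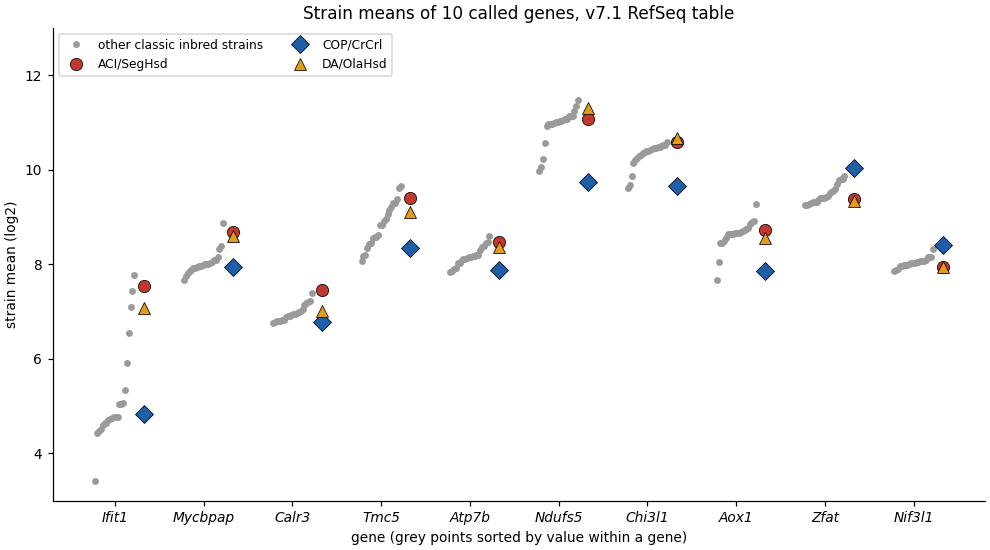
Mean log2 level (y axis) of each classic inbred strain for 10 called genes (x axis) in the v7.1 table, with ACI/SegHsd in red, COP/CrCrl in blue, DA/OlaHsd in orange and the others in grey, sorted within a gene. COP lies below the panel for Ndufs5 and above it for Zfat and Nif3l1, and ACI lies above it for Calr3.

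Set among all pairs of the 14 classic inbred strains with 3 animals in v5, the number of calls between ACI and COP was at the low end. The 91 pairs had 21 to 6694 called genes with a median of 801, and ACI against COP, with 246, ranked 6 from the lowest. ACI against DA/OlaHsd had 214, ACI against SS/JrHsd 312 and ACI against SHR/OlaIpcv 5862. These counts share the ACI animals, and batches differ among the pairs, whose part in the counts was not tested.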

How the data were processed

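Total RNA from 1 side of the sagittally split brains of male rats of inbred strains was sequenced after ribosomal RNA removal. The authors deposited log2 levels per gene or transcript and animal, and no counts. Per the study's methods for its own transcriptome, reads were trimmed, ribosomal reads removed with Bowtie2, and the rest aligned with HISAT2 to strain-specific versions of rn6. The authors then estimated levels with RSEM, dropped outlying libraries, removed 1 factor of unwanted variation and took the regularized log transform of DESeq2. Such transforms shrink differences of low genes. The submitters' processing notes name cutadapt 1.9.1, Bowtie2 2.3.4.3, HISAT2 2.1.0, StringTie 1.3.5 and RSEM 1.3.1 for these animals. Whether the v5 Ensembl 96 table and the v7.1 tables went through the same steps, and the genome build of v7.1, are not given in the sources used here. COP/CrCrl animal 1 was not analysed in the v7.1 tables. With no counts, the depth per library and the counting error are unknown.

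Here libraries of 1 animal were averaged, and limma 3.58.1 (R 4.3.3) was fitted with strain as a factor over all animals of a table (v7.1 genes 197 animals of 74 strains, v5 132 of 45, version 6 165 of 58), and ACI/SegHsd minus COP/CrCrl was tested with Benjamini-Hochberg adjustment at 5%. The p-values measure the spread between animals. Summaries used Python 3.11.15, pandas 2.3.3 and SciPy 1.17.1. Spike-in features (73 in v7.1 and 76 in v5) were left out, as were tables of strain means and of transcript reconstructions. Named genes were called, did not overlap between the strains, had no value over 30, and had the higher strain above the table median, the 12 largest each way being taken (5 were found lower), with 2 provisional symbols each way, called members of each gene list and the called genes of the window with the highest share. The rule had assumed 3 COP animals and was applied to 2. Members and lists were chosen with earlier results of these data known. Promoters are RefSeq GRCr8. Fits were tested on simulated data. Alternatives changed the samples, batch terms, filters, scaling and table.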

Additional observations from a re-analysis of the deposited data

How the results depend on the processing

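In v7.1 the 120 calls became 12 with these 5 animals alone (3 higher and 9 lower in ACI), 26 among genes above the median level and 45 with a difference over 1 required as well. Leaving out each animal gave 55 to 122 calls, with 76 without ACI animal 2, 55 without COP animal 2 and 59 without COP animal 3. Batch as a covariate gave 127, title batch 118, the batch-matched animals 122, trended and robust variances 124, genes above the lower quartile 81, median centring 120, quantile normalization 128 and version 6 gave 89 (0.477% of its genes). In v5 these animals alone gave 58 calls and leaving out each animal 186 to 222. For transcripts these animals alone gave 0 calls by limma (1980 at an unadjusted p below 5%), and leaving out each animal 49 to 284, with 49 without COP animal 2 and 284, of which 263 were higher in ACI, without COP animal 3. In the gene lists the 7 calls became 1 with these animals alone and 3 to 8 when each animal was left out, with 3 without ACI animal 2 or COP animal 3. Same-numbered animals share a batch by 1 label for numbers 2 and 3 but not for 1. Their deviations correlated at 0.062, 0.478 and 0.525 in v5, where pairs of unlike number lay between -0.549 and 0.274. In v7.1 they correlated at -0.0533 and 0.773. With 2 COP animals each v7.1 value is mirrored in the other COP animal, so these values cannot decide on a pairing. ACI animal 1 and COP animal 2, of unlike number, correlated at 0.749 there. The numbers were not taken as a pairing across all animals. Batch as a covariate, above, bears on the batches shared. With a replicate block among these animals alone the counts were 29 in v7.1 (12 without the block), 32 in v5, 0 transcripts (3091 at an unadjusted p below 5%) and 3 in the gene lists. Differences turned sign in version 6 for Rpl30 (-0.11), Klf11 (-0.061), Rpl7a (-0.036), Ankra2 (-0.53) and RGD1563601 (0.011), and in v5 for Klf11 (-0.062) and LOC100362027 (0.14), for causes that were not tested. Of the 33 named genes, 4 stayed called with these animals alone, 9 with the block and 31 with batch.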
